A study of Homo sapiens with 4 samples.

Results

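The genes described here are 48 genes of autophagy, the process by which a cell encloses its own material in a membrane and delivers it to the lysosome. They were taken by name from a table of 63677 rows of genes: 47 belong to the machinery, its cargo receptors and its transcription factors, and the remaining gene, FYCO1, was chosen because it was higher after AXL knockdown in these same libraries. All 48 genes had a row. Of these, 46 were found under their usual symbols and 2 under older symbols of the same Ensembl gene, ATG101 as C12orf44 and RUBCN as KIAA0226. PLEKHM1 and TFE3 had 2 rows each, of which the one with the higher mean was kept.

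RNA was sequenced from MDA-MB-231 cells, an established human cell line of triple-negative breast cancer (TNBC) with an Illumina instrument. Cells of 2 libraries received a control siRNA (siCt 1 and siCt 2), and cells of 2 libraries received siRNA against AXL, one of the TAM receptor tyrosine kinases (siAXL 1 and siAXL 2). The comparison asks which transcripts differ between cells given siRNA against AXL and cells given the control siRNA. Effects of either siRNA reagent beyond the loss of AXL cannot be told apart from that loss in these libraries. Per the methods of the study, the siRNA against AXL was an ON-TARGET pool of several siRNAs delivered by lipid transfection. The sequences of the siRNAs and the time after transfection are not given in the sources used here. No source says whether the libraries of a group came from separate cultures, so the p-values below measure only the spread between these libraries.

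In autophagy the ULK1 kinase complex starts the process, and a class III PI3-kinase complex marks the nascent membrane with a phosphoinositide. WIPI proteins read that mark, ATG9A and ATG2 proteins supply lipid, and 2 ubiquitin-like conjugation reactions attach LC3 and GABARAP proteins to the membrane. Receptors such as SQSTM1 (p62) tie cargo to LC3 and are themselves degraded with it, and RAB7 effectors, FYCO1 among them, move the closed autophagosome and fuse it with the lysosome. The factors TFEB, TFE3 and MITF drive transcription of many of these genes. RNA levels report none of this flux.

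AXL itself, the target of the siRNA, had 29189 and 30617 normalized counts in the siCt libraries and 8658 and 7141 in the siAXL libraries, so 26.4% of the siCt mean remained. Here a normalized count is the number of reads of a gene divided by the size factor of its library. The libraries held 39574387 to 44585773 reads. Of the 7 markers checked for the labelled line, VIM lay at 86751 to 99296 normalized counts, CD44 at 33968 to 36518 and ZEB1 at 3075 to 3697, none of them called, while ESR1 and PGR, the hormone receptors, had at most 3 reads in any library. ERBB2 (HER2), the other receptor of the triple-negative definition, was not absent at the RNA level: it had 3089 and 2949 normalized counts in siCt and 3680 and 3536 in siAXL and was called higher (0.26, limma adjusted p = 0.0258). CDH1 (E-cadherin), an epithelial marker, was low and was called lower, from 92.2 ± 2.92 to 29.8 ± 10.1 (SD, n = 2, limma adjusted p = 0.00847). Of the 5 markers of other cells, PECAM1 had no read, PTPRC lay at 7.77 to 16.7 and CD68 at 24.0 to 41.8 normalized counts, EPCAM ranged from 565 to 771, and PDGFRB rose from 301 ± 8.67 to 438 ± 26.1 (SD, n = 2). Their part in the results below was not tested.

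All 48 autophagy genes passed the filter on low counts, with 65 to 52928 reads per gene and library. Their levels were high for this table, with a median normalized count of 2063 over the 48 genes and 884 over the 16064 genes tested. FYCO1 was counted out of every test. Among the other 47 genes, 11 were higher in siAXL (23.4%) and 2 were lower (4.26%) at a limma adjusted p under 0.05, and 34 were not called. Over all tested genes 18.7% were called, 10.8% as higher and 7.91% as lower. The 11 genes that rose were WIPI1, MAP1LC3B, GABARAP, ATG10, ULK1, WIPI2, GABARAPL1, ATG9A, TECPR1, TFE3 and RUBCN, and the 2 that fell were SQSTM1 and ATG4D. The log2 fold change was positive for 32 genes and negative for 15, and its median was 0.096 beside -0.0022 over all tested genes. The siCt and siAXL libraries did not overlap for 30 of the 47 genes (22 higher and 8 lower in siAXL), where 61.2% of all tested genes showed no overlap, 30.6% as higher and 30.5% as lower. At an unadjusted p under 0.05, 20 of the 47 genes were called, beside 34% of all tested genes. On the recovered reads edgeR called 12 of the 47 as higher and 2 as lower (19.4% of all genes called), and DESeq2 called 9 and 2 (20.7% of all genes with an adjusted p). With every gene of at least 1 read tested, 4 autophagy genes were called higher and 1 lower, beside 2.79% and 1.25% of all genes. Those 27108 genes include the ones under the low-count filter, which all 48 autophagy genes passed. No share over all genes given here was matched to the higher levels of the autophagy genes. Scaling by library size alone gave 8 and 3, and moved the calls over all genes to 9.56% higher and 10.9% lower. Leaving out siAXL 1 gave 5 and 1 (5.53% and 2.57% of all genes), and leaving out siAXL 2 gave 5 and 1 (5.43% and 4.02%). With 2 libraries a group, an exact two-sided permutation test of a single gene cannot go below 0.333.

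**Figure D1:**
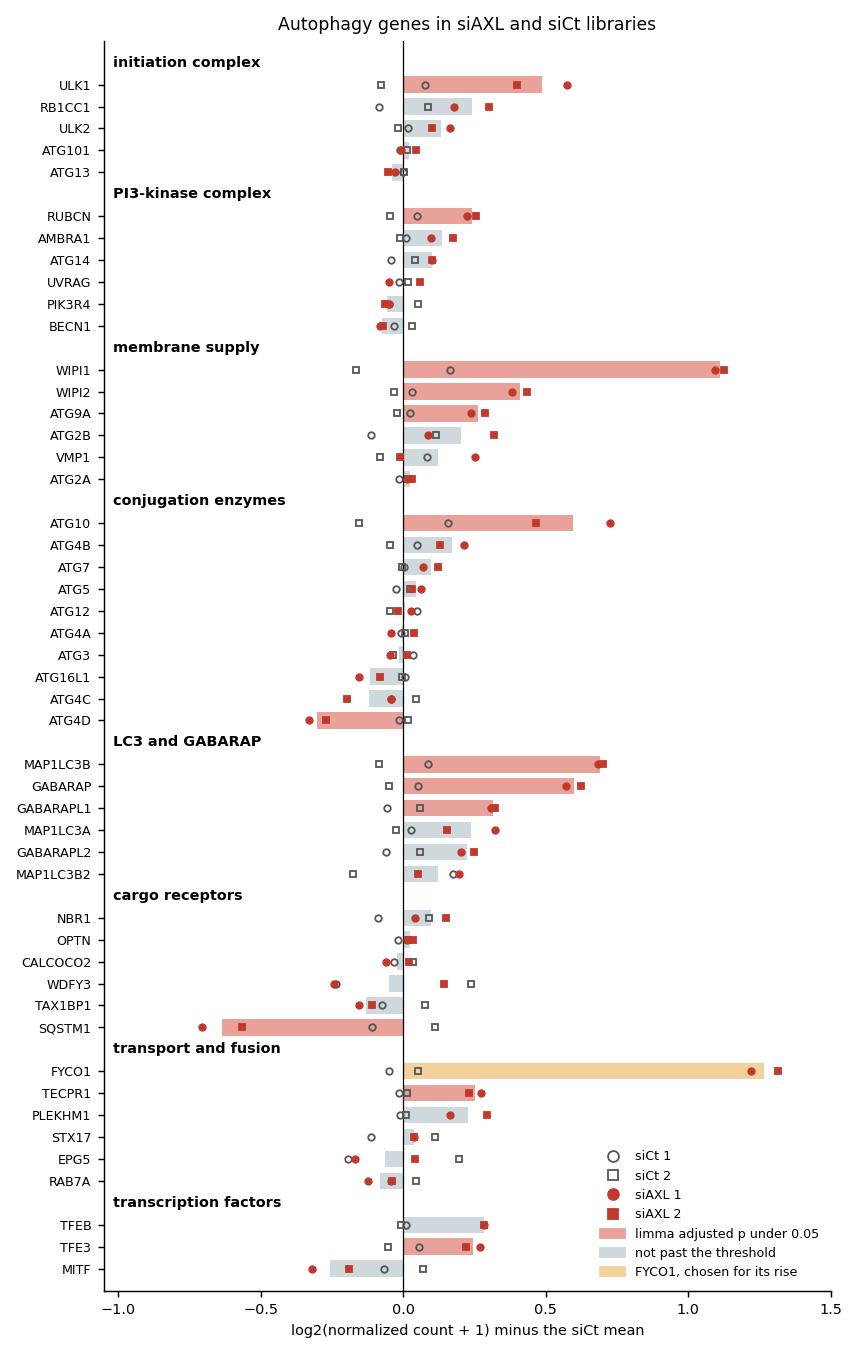
Each library's log2(normalized count + 1) minus the mean of the siCt libraries is shown on the x axis for the 48 autophagy genes, grouped by role, with bars for the siAXL mean. Bars of WIPI1 and MAP1LC3B reach 1.11 and 0.69, that of SQSTM1 reaches -0.64, and FYCO1, chosen for its rise, is drawn in another colour.

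FYCO1 encodes an adaptor that binds LC3, the membrane phosphoinositide and RAB7 and links autophagosomes and late endosomes to kinesin. It had 1186 and 1274 normalized counts in siCt and 2864 and 3058 in siAXL. Both siAXL libraries lay above both siCt libraries, at 2.41 times the siCt mean, with a log2 difference of 1.27 (SE 0.0689). Since this rise was the reason for choosing the gene, it is given without a test. It was larger than that of any of the other 47 genes, of which WIPI1 came nearest.

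FYCO1 shares a short word in the 3′ UTR with 6 of the 13 called genes. CACATCA is a 7-base word that an earlier look at these same fold changes had singled out over all genes, so its presence in the members is a description and not independent support. Of 13062 tested genes with a 3′ UTR in GENCODE release 29, 1636 (12.5%) held the word there. Their median log2 fold change was 0.104, against -0.0107 without it, and 26.0% of them were called higher, against 10.9%. Among the 47 autophagy genes, 10 (21.3%) held the word. Of these 10, 5 rose (RUBCN, WIPI1, ATG9A, ATG10 and GABARAP), SQSTM1 fell, and UVRAG, AMBRA1, ATG16L1 and EPG5 were not called. Of the 37 genes without the word 6 rose (16.2%), among them MAP1LC3B, ULK1 and WIPI2. The sites of FYCO1 and of the called genes are shown because they let a reader set the word beside the fold changes. Each lies in the 3′ UTR, within 1 exon, in GRCh38 coordinates, read 5′ to 3′ on the strand of the gene with the word in capitals and 10 bases on either side.
FYCO1 (chr3:45918034-45918060, minus strand): tatctagaagCACATCAaataccagca
WIPI1 (chr17:68421548-68421574, minus strand): acattgtataCACATCAtgctatttaa
GABARAP (chr17:7240434-7240460, minus strand): aggtaggaggCACATCAataaagagga
ATG10 (chr5:82254574-82254600, plus strand): aaaaaaaagaCACATCActataaatag
ATG9A (chr2:219219915-219219941, minus strand): ccgcttcttgCACATCActggcctgtg
RUBCN, upstream site (chr3:197672611-197672637, minus strand): ctgcctgtttCACATCAgcataggatc
RUBCN, downstream site (chr3:197671864-197671890, minus strand): ctggaccacaCACATCAaggaaagtga
SQSTM1 (chr5:179837384-179837410, plus strand): tcccagatcaCACATCAtcatcgaagt
Beyond the word the flanks differ from site to site. Since the sequences of the siRNAs are not given in the sources used here, a match of the word to any of them was not tested.

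**Figure D2:**
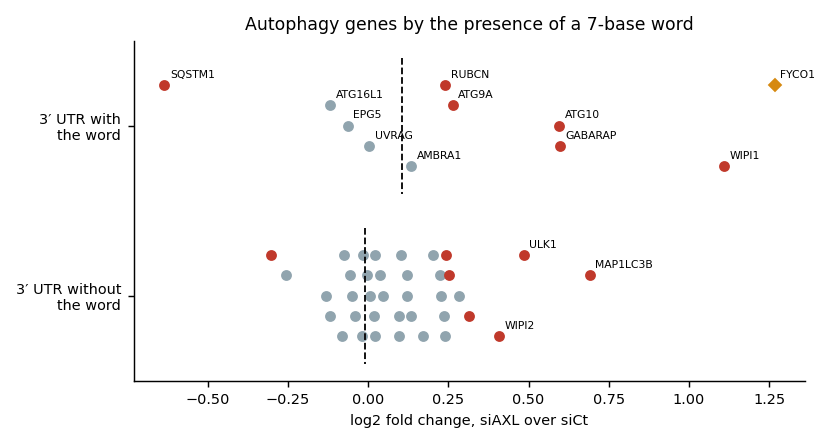
The log2 fold change (siAXL over siCt) of each autophagy gene is plotted in an upper row for genes with CACATCA in the 3′ UTR and a lower row for genes without it; red points passed the threshold, grey points did not, the orange diamond is FYCO1, vertical position within a row only separates points, and dashed lines mark the medians over all tested genes (0.104 and -0.0107). In the upper row 5 red points lie to the right, at 0.24 to 1.11, and SQSTM1 lies to the left at -0.64.

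Of the 5 genes of the initiation complex, 1 rose (20%, beside 10.8% of all tested genes). ULK1, the kinase that starts autophagy, had 2850 and 2560 normalized counts in siCt and 4020 and 3559 in siAXL, a log2 difference of 0.49 (SE 0.0821, limma adjusted p = 0.0103). Both siAXL libraries were above both controls. RB1CC1 (FIP200), the scaffold of the complex, had 4279 and 4817 in siCt and 5141 and 5597 in siAXL. Its difference of 0.24 did not pass (adjusted p = 0.0692). That difference was 0.155 without siCt 1, 0.33 without siCt 2, 0.30 without siAXL 1 and 0.18 without siAXL 2. ULK2, the close relative of ULK1, differed by 0.13 (adjusted p = 0.322), with 485 and 473 normalized counts in siCt against 537 and 514. ATG13 and ATG101, which bind each other and tether the kinase, lay within 0.05 of no difference, at -0.041 and 0.019. With every gene of at least 1 read tested, the call of ULK1 was lost (adjusted p = 0.0546).

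The PI3-kinase complex contributed 1 of 6 genes (16.7%, beside 10.8% of all tested genes called higher), and that gene encodes an inhibitor. RUBCN (Rubicon) binds the form of the complex that holds UVRAG and restrains autophagosome maturation. Its normalized counts were 1655 and 1548 in siCt and 1870 and 1912 in siAXL, a log2 difference of 0.24 (SE 0.0649, limma adjusted p = 0.0434). This small rise was not called without siCt 2 (0.174), siAXL 1 (0.140) or siAXL 2 (0.180), given as adjusted p, nor by DESeq2 (adjusted p = 0.0584) or after scaling by library size alone (adjusted p = 0.0609). RUBCN also shares 118 exon bases with FYTTD1 on the opposite strand, a gene with 2.25 times its reads that was itself higher by 0.22 (adjusted p = 0.0387). Since the strand setting of the counting is not given in the sources used here, the reads of the pair in those bases cannot be told apart. None of the other members of the complex among the 48 genes passed: BECN1, the scaffold, differed by -0.077, ATG14, which sends the complex to autophagosomes, by 0.10, PIK3R4 (VPS15), the regulatory subunit, by -0.058, and UVRAG, the endosomal counterpart of ATG14, by 0.0030. AMBRA1, a BECN1-binding regulator, differed by 0.13 (adjusted p = 0.187). The catalytic subunit PIK3C3 (VPS34), which is in the related lists and was named after its values were seen, had 3231 and 3329 in siCt and 3732 and 3681 in siAXL, a difference of 0.18 that did not pass (adjusted p = 0.0652) although the groups did not overlap.

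The genes of phosphoinositide reading and membrane supply held 3 of the 11 rises among 6 genes (50%, beside 10.8% of all tested genes). All 6 had positive differences, as did 32 of the 47 autophagy genes. WIPI1, which binds the phosphoinositide on the forming autophagosome, had 1190 and 947 normalized counts in siCt and 2269 and 2317 in siAXL. Its log2 difference of 1.11 (SE 0.107, limma adjusted p = 0.00218) corresponds to 2.15 times the siCt mean and was the largest among the 47 tested autophagy genes. It shares 828 exon bases on the opposite strand with ARSG, whose reads came to 0.0394 times its own. WIPI2, the relative that recruits ATG16L1, rose from 2869 and 2746 to 3659 and 3794, a log2 difference of 0.41 (SE 0.0580, adjusted p = 0.00586). Both genes were called in every setting in which they were tested. ATG9A, a lipid scramblase carried on vesicles, rose from 4864 and 4719 to 5649 and 5850, by 0.26 on the log2 scale (SE 0.0546, adjusted p = 0.0197). Its libraries did not overlap, but the call was lost without siAXL 1 (adjusted p = 0.0651) or siAXL 2 (adjusted p = 0.105). The lipid transfer proteins ATG2A and ATG2B differed by 0.022 and 0.20, neither past the threshold, and for both the libraries of the groups overlapped. ATG2B had 2322 and 2721 in siCt and 2667 and 3135 in siAXL. Its difference was 0.088 without siCt 1, 0.32 without siCt 2, 0.32 without siAXL 1 and 0.085 without siAXL 2. VMP1, a scramblase of the endoplasmic reticulum, had 14141 and 12633 in siCt and 15902 and 13272 in siAXL, with overlapping groups.

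Among the 10 conjugation enzymes and proteases, 1 rose and 1 fell (10% each, beside 10.8% and 7.91% of all tested genes). ATG10, the E2-like enzyme for ATG12, was the least abundant of the called genes, with 146 and 117 normalized counts in siCt and 217 and 181 in siAXL. Its log2 difference was 0.60 (SE 0.163, limma adjusted p = 0.0452). The groups did not overlap, but the call was lost by edgeR (adjusted p = 0.0532), by DESeq2 (0.0664), with TMM scaling (0.0526) and with scaling by library size alone (0.0608), and without siCt 2 (0.101), siAXL 1 (0.207) or siAXL 2 (0.0563). ATG10 also shares 374 exon bases on the opposite strand with RPS23, a ribosomal protein gene with 89.5 times its reads and a log2 difference of -0.035. The proteases of the ATG4 family, which prime LC3 and GABARAP and remove them from membranes, split by member. ATG4D fell from 1411 and 1443 to 1133 and 1182, by 0.30 on the log2 scale (SE 0.0657, adjusted p = 0.0228). Its call was lost without siAXL 1 (adjusted p = 0.125) or siAXL 2 (adjusted p = 0.0649), and it shares 341 exon bases with KRI1 on the opposite strand, a gene with a mean of 2587 reads beside its own 1294 that differed by -0.076. ATG4B, the family member with the broadest activity, had 1576 and 1475 in siCt and 1766 and 1666 in siAXL, a difference of 0.17 that did not pass (adjusted p = 0.133), and ATG4A and ATG4C differed by -0.0035 and -0.12. The E1-like enzyme ATG7 differed by 0.096, the LC3-conjugating ATG3 by -0.016, and ATG12, ATG5 and ATG16L1, which form the E3-like complex, by 0.0056, 0.045 and -0.12. None of these 5 passed the threshold.

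Genes of the LC3 and GABARAP family, the proteins coupled to the autophagosome membrane, had positive differences in all 6 members. Of the 6, 3 rose (50%, beside 10.8% of all tested genes). MAP1LC3B, the source of the LC3B protein, had 2890 and 2561 normalized counts in siCt and 4364 and 4421 in siAXL. The log2 difference was 0.69 (SE 0.0707, limma adjusted p = 0.00249), or 61.1% more than the siCt mean, and the 150 exon bases it shares with FBXO31 on the opposite strand belong to a gene with 0.274 times its reads. GABARAP rose from 1758 and 1640 to 2523 and 2616, a log2 difference of 0.60 (SE 0.0644, adjusted p = 0.00276). In both genes the siAXL libraries lay close together and far above the controls, and both calls were kept in every setting in which the gene was tested. GABARAPL1 had 1691 and 1831 in siCt and 2179 and 2198 in siAXL, a log2 difference of 0.31 (SE 0.0654, adjusted p = 0.0199), and lost its call without siAXL 1 (adjusted p = 0.0737) or siAXL 2 (adjusted p = 0.0764). GABARAPL2 (GATE-16) had 1769 and 1922 against 2122 and 2187 and just missed the threshold (0.22, adjusted p = 0.0580). It was called by edgeR (adjusted p = 0.0443) but not by DESeq2, and with 1 library left out its difference ran from 0.16 to 0.28. For MAP1LC3A, with 378 and 364 against 463 and 413, the difference of 0.24 did not pass (adjusted p = 0.145).

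**Figure D3:**
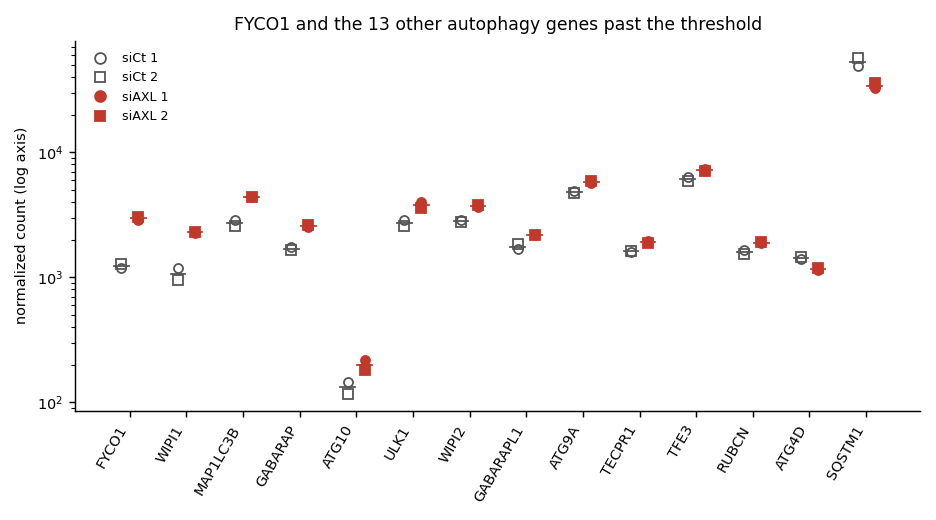
Normalized counts, on a log axis, are shown for FYCO1 and the 13 other autophagy genes past the threshold, with 1 symbol per library and a short line at each group mean. The siAXL symbols lie above the siCt symbols for FYCO1 and the 11 genes that rose, from ATG10 near 131 to TFE3 near 6119 in siCt, and below them for ATG4D and SQSTM1.

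MAP1LC3B2, with 90.1 and 70.4 normalized counts in siCt and 91.3 and 82.5 in siAXL, is uncertain because its coding sequence is nearly that of MAP1LC3B. Over 375 coding bases in GENCODE the genes agree at 373 (99.5%), with an identical stretch of 307 bases. The differences are C30G and A338G, counted from 1 at the A of the start codon, with the base of MAP1LC3B first. The windows around them are shown because, within the coding sequence, only reads that cross them separate the genes, with the differing base in capitals. The sequences of the genes outside the coding sequence were not compared.
MAP1LC3B, coding bases 15 to 45: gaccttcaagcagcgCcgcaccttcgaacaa
MAP1LC3B2, coding bases 15 to 45: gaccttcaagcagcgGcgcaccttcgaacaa
MAP1LC3B, coding bases 323 to 353: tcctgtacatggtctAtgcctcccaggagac
MAP1LC3B2, coding bases 323 to 353: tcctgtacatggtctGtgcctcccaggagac
MAP1LC3B2 did not follow the rise of MAP1LC3B past its own spread, with a log2 difference of 0.12 (SE 0.186) and overlapping groups.

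Per kilobase of the longest GENCODE transcript, GABARAPL2 was the most abundant family member, at 1842 normalized counts per kb in siCt and 2150 in siAXL. GABARAP (1040 in siCt, 1573 in siAXL) and MAP1LC3B (1014 and 1634) followed, with overlapping libraries in siCt and with MAP1LC3B above GABARAP in both siAXL libraries. GABARAPL1 came next at 768 and 954 per kb, then MAP1LC3A at 236 and 278, with MAP1LC3B2 last at 122 and 132. The order of these 6 levels per length was therefore the same in both groups except for the exchange of GABARAP and MAP1LC3B. MAP1LC3B shares nearly all its coding bases with MAP1LC3B2, and GABARAP shares exon bases with AC120057.2 on the same strand. How reads in those bases were counted is not given in the sources used here, and their part in this order was not tested.

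**Figure D4:**
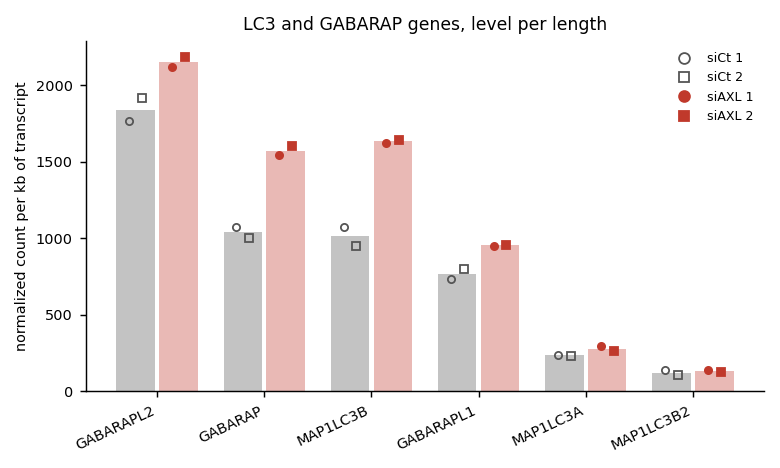
Bars show the mean normalized count per kb of transcript in siCt (grey) and siAXL (red) for the 6 LC3 and GABARAP genes, with symbols for the 2 libraries of each group. MAP1LC3B climbs from 1014 to 1634 and GABARAP from 1040 to 1573, while MAP1LC3A and MAP1LC3B2 stay under 300 per kb.

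Of the 6 cargo receptors, SQSTM1 fell (16.7%, beside 7.91% of all tested genes) and the other 5 did not pass the threshold. SQSTM1 (p62), which binds ubiquitinated cargo and LC3, was the most abundant of the 48 genes, with 49117 and 57348 normalized counts in siCt and 32539 and 35871 in siAXL. Its log2 difference was -0.64 (SE 0.0898, limma adjusted p = 0.00577), so 64.3% of the siCt mean remained, and the call was kept in every setting in which it was tested. The groups did not overlap. Its direction was opposite to that of MAP1LC3B. On the opposite strand it shares 1582 exon bases with MRNIP and 105 with MGAT4B, whose reads came to 0.0233 and 0.239 times its own, and MGAT4B was higher by 0.53. NBR1, the other long receptor for ubiquitinated cargo, had 9721 and 11010 in siCt and 10643 and 11477 in siAXL, with overlapping groups (0.095). OPTN and CALCOCO2 (NDP52), receptors known from the removal of bacteria and mitochondria, differed by 0.022 and -0.021, and their relative TAX1BP1 by -0.13 (adjusted p = 0.206). WDFY3 (ALFY), the scaffold for clearing protein aggregates, differed more between libraries of a group than between groups, with 3778 and 5256 in siCt and 3762 and 4915 in siAXL. Leaving out siCt 1 gave WDFY3 a difference of -0.29 (adjusted p = 0.0154), and leaving out siCt 2 turned it to 0.19.

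In transport and fusion, FYCO1 stood with 5 tested partners, of which 1 rose (20%, beside 10.8% of all tested genes). TECPR1, which binds the ATG12 and ATG5 conjugate and has been tied to autophagosome maturation, had 1603 and 1635 normalized counts in siCt and 1955 and 1897 in siAXL, a log2 difference of 0.25 (SE 0.0605, limma adjusted p = 0.0309). The call was lost without siCt 1 (adjusted p = 0.0580), siAXL 1 (0.170) or siAXL 2 (0.0996). RAB7A, the GTPase that FYCO1 binds, had 12169 and 12935 in siCt and 11510 and 12215 in siAXL, so its groups overlapped (-0.081, adjusted p = 0.395). PLEKHM1, another RAB7 effector that binds LC3, had 2266 and 2300 against 2555 and 2797 and just missed the threshold (0.23, adjusted p = 0.0532). It was called by edgeR (adjusted p = 0.0356) but not by DESeq2. STX17, the SNARE of the autophagosome, differed by 0.038. EPG5, a tether between autophagosome and lysosome, had 3908 and 5128 in siCt and 3984 and 4608 in siAXL. Its groups overlapped (-0.063), and leaving out siCt 1 gave -0.26 (adjusted p = 0.0248) while leaving out siCt 2 gave 0.13.

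WDFY3, ATG2B and EPG5 had the longest transcripts of the 48 genes, 14247, 13684 and 12698 bases, and all were higher in library 2 than in library 1 of both groups. The ratio of library 2 to library 1 was 1.39 in siCt and 1.31 in siAXL for WDFY3, 1.17 and 1.18 for ATG2B, and 1.31 and 1.16 for EPG5. Across the 48 genes, which share these libraries and are not independent, Spearman's rho of that ratio with transcript length was 0.289 in siCt and 0.308 in siAXL, while rho of the siAXL to siCt difference with length was 0.0346. Over 15649 tested genes with a length the same 3 values were 0.138, 0.107 and 0.104. FYCO1, with the next longest transcript at 8578 bases, had ratios of 1.07 and 1.07.

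Among the 3 transcription factors, TFE3 rose (33.3%, beside 10.8% of all tested genes). It had 6355 and 5883 normalized counts in siCt and 7359 and 7122 in siAXL, a log2 difference of 0.24 (SE 0.0603, limma adjusted p = 0.0331). Its call was lost without siCt 2 (adjusted p = 0.146), siAXL 1 (0.156) or siAXL 2 (0.0853) and after scaling by library size alone (0.0508). TFEB, its best known relative in lysosome control, had 385 and 381 in siCt and 467 and 467 in siAXL, a difference of 0.28 that did not pass (adjusted p = 0.0637) although the groups did not overlap. MITF, with 1621 and 1782 in siCt and 1362 and 1489 in siAXL, lay on the other side (-0.26, adjusted p = 0.0629), and it was called lower without siCt 1 (0.00923) and after scaling by library size alone (0.0401).

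Further genes on the opposite strand share exon bases with autophagy genes that were not called. PSME3 had 2.32 times the reads of BECN1, VGLL4 had 1.77 times those of ATG7, and AP3S1 had 1.13 times those of ATG12. The reads of THAP4 came to 0.945 times those of ATG4B, those of SLC35A5 to 0.890 times those of ATG3, and those of GSKIP to 0.717 times those of ATG2B, and none of these 6 genes was called. PTRH2, with a mean of 1691 reads beside 14072 for VMP1, was called lower (-0.30, limma adjusted p = 0.0294), and JAZF1, with 0.0418 times those of TAX1BP1, and CCDC3, with 0.0228 times those of OPTN, were called higher (0.51, adjusted p = 0.0249, and 0.41, adjusted p = 0.0461). HARBI1 beside ATG13 and AC060780.1 beside NBR1 had 0.0550 and 0.00559 times the reads. The remaining overlapping genes of the annotation had a mean of at most 4.25 reads or were not matched to a row. Among them, AC120057.2, which had no read, shares 691 exon bases with GABARAP on the same strand. AC068946.2, not matched to a row, shares 1833 exon bases with ATG9A on the same strand. How reads in those bases were counted is not given in the sources used here, and their part in the levels of GABARAP and ATG9A was not tested.

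TFEB, TFE3 and MITF are known to bind the E-box CACGTG, so the promoters of the autophagy genes were searched for it. RefSeq sequences of 250 bases before to 50 bases after the start (GRCh38.p14) were at hand for 55 promoters of 41 of the 48 genes. On either strand, CACGTG was in the promoters of ATG14 and ATG3, and in 7.26% of all 35116 promoters. The longer TCACGTGA, which contains it, was in that of ATG3 and in 0.98% of all promoters. Neither gene passed the threshold, and no gene that rose had the word in these windows. The windows are shown, 30 bases each on the minus strand of the genes, with the E-box in capitals.
ATG3, upstream site (chr3:112561963-112561992): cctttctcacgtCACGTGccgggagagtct
ATG3, downstream site (chr3:112561940-112561969): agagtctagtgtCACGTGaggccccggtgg
ATG14 (chr14:55411834-55411863): aaaacaaaatccCACGTGactggctctcct
Other words gave few matches. TGACNNNGC, the core of the antioxidant response element, was in promoters of ATG101, CALCOCO2, MAP1LC3B and TECPR1 and in 13.3% of all promoters. The cAMP response element TGACGTCA was in those of GABARAPL1 and MITF (1.85% of all), the forkhead word TGTTTAC in that of CALCOCO2 (3.42%), and the ATF4 word TGATGNAAT in none (0.991%). A match is a description of these letters and not a site in use.

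Beyond the 48 genes, 4 lists of related genes were counted, 78 genes in all, of which 77 had a row and 74 were tested. Of the 74, 15 rose (20.3%) and 3 fell (4.05%), beside 10.8% and 7.91% of all tested genes. At an unadjusted limma p under 0.05 in either direction, 34% of all tested genes passed. So did 7 of 12 other core genes, 6 of 18 organelle receptors, 11 of 24 transport partners and 9 of 20 kinase inputs. Of the 12 other core autophagy genes, 2 rose and none fell at the adjusted threshold. TP53INP1, an LC3-binding protein under p53, had 1334 and 1221 normalized counts in siCt and 2034 and 1999 in siAXL (log2 difference 0.66, SE 0.0692, limma adjusted p = 0.00265). WDR45, a WIPI relative (WIPI4), had 2452 and 2194 against 3241 and 2881 (0.40, SE 0.0829, adjusted p = 0.0201), and lost its call without siAXL 1 (0.0822).

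Receptors for whole organelles held 5 rises among 18 tested genes (27.8%, beside 10.8% of all tested genes). BNIP3L (NIX), a mitochondrial receptor, had 7825 and 6741 normalized counts in siCt and 14584 and 14947 in siAXL, a log2 difference of 1.02 (SE 0.0771, limma adjusted p = 0.00136). Its relative BNIP3 rose from 9299 and 8405 to 12244 and 12275 (0.47, adjusted p = 0.00509). Both are known targets of hypoxia signalling. NCOA4, the receptor for ferritin, had 9123 and 8932 against 11802 and 12688 (0.44, adjusted p = 0.00492). FKBP8, a further mitochondrial receptor, rose by 0.23 (adjusted p = 0.0262), and its call was lost without any 1 of the 4 libraries (adjusted p 0.0575 to 0.129). PINK1, the kinase that marks damaged mitochondria, was named after its values were seen and rose by 0.27 (adjusted p = 0.0284), a call lost without siAXL 2 (0.149). BNIP3L and NCOA4 hold CACATCA in the 3′ UTR, BNIP3, FKBP8 and PINK1 do not.

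Among 24 partners of late endosome transport and fusion, 4 rose and 2 fell (16.7% and 8.33%, beside 10.8% and 7.91% of all tested genes). YKT6, a SNARE of autophagosome fusion, had 3865 and 3643 normalized counts in siCt and 4751 and 4836 in siAXL (log2 difference 0.35, SE 0.0574, limma adjusted p = 0.00908). VPS39 and VPS16, subunits of the HOPS tether, differed by 0.29 (adjusted p = 0.0155) and 0.24 (adjusted p = 0.0478). VPS16 was not called by DESeq2 (adjusted p = 0.0803) or by limma after scaling by library size alone (adjusted p = 0.0650). The other HOPS subunits, named after their values were seen, were not called. Of these, VPS11, VPS18 and VPS33A differed by -0.15, -0.20 and -0.090, and VPS41 by 0.11. PLEKHM2, which links lysosomes to kinesin, differed by 0.26 (adjusted p = 0.0184). The 2 that fell also belong to kinesin transport. KLC2, a kinesin light chain, had 6277 and 6482 against 4949 and 4872 (-0.38, SE 0.0532, adjusted p = 0.00572). ZFYVE27 (protrudin), which works with FYCO1 in moving late endosomes outward, had 1556 and 1418 against 1263 and 1175 (-0.29, SE 0.0769, adjusted p = 0.0426). ZFYVE27 was not called by edgeR (adjusted p = 0.0543). Nor was it called by limma with TMM scaling (adjusted p = 0.0554) or with every gene of at least 1 read tested (adjusted p = 0.110). YKT6 and KLC2 kept their calls with any 1 library left out. Without siAXL 1 and without siAXL 2 the adjusted p was 0.0865 and 0.0597 for VPS39, 0.250 and 0.117 for VPS16, 0.0752 and 0.0947 for PLEKHM2, and 0.0778 and 0.186 for ZFYVE27. Leaving out siCt 1 also ended the calls of VPS16 (0.107) and ZFYVE27 (0.108), and leaving out siCt 2 that of VPS16 (0.0678).

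Of 20 genes of the kinases that control ULK1, 4 rose and 1 fell (20% and 5%, beside 10.8% and 7.91% of all tested genes). PRKAA2, a catalytic subunit of AMPK, which activates ULK1, had 1189 and 1094 normalized counts in siCt and 1531 and 1620 in siAXL (log2 difference 0.46, SE 0.0734, limma adjusted p = 0.00832). The other catalytic subunit, PRKAA1, was named after its values were seen and lay on the other side. It had 6567 and 6685 in siCt and 5906 and 5781 in siAXL, a difference of -0.18 that did not pass (limma adjusted p = 0.0528). TSC2, a brake on mTORC1, and RPTOR, a subunit of mTORC1, which inhibits ULK1, rose by 0.28 (adjusted p = 0.0241) and 0.24 (adjusted p = 0.0243). The sestrins, stress-induced inhibitors of mTORC1, split: SESN3 rose by 0.34 (adjusted p = 0.0426) and SESN1 fell from 465 and 464 to 316 and 350, by 0.48 (SE 0.0976, adjusted p = 0.0181). PRKAA2 kept its call with any 1 library left out. Without siAXL 1 the adjusted p was 0.0773 for TSC2, 0.0917 for RPTOR, 0.0745 for SESN3 and 0.0950 for SESN1. Without siAXL 2 it was 0.0906 for TSC2, 0.129 for RPTOR and 0.189 for SESN3, and leaving out siCt 2 ended the call of TSC2 (0.0809) and leaving out siCt 1 that of SESN3 (0.0907).

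**Figure D5:**
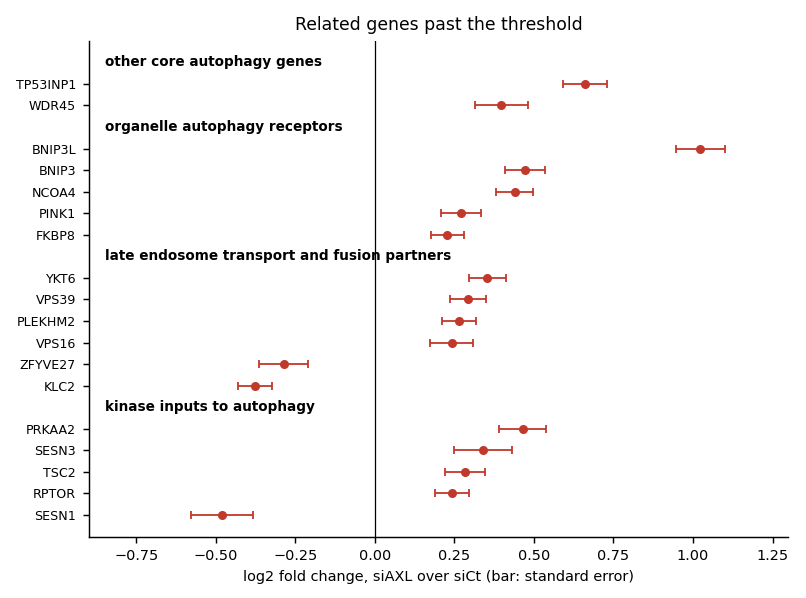
Points show the log2 fold change (siAXL over siCt) of the 18 related genes past the threshold in 4 lists, and bars the standard error. BNIP3L lies farthest to the right at 1.02, and SESN1, KLC2 and ZFYVE27 lie to the left of 0.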

How the data were processed

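RNA-seq of 4 libraries was processed by the authors, whose submitters' notes name CASAVA 1.8, TopHat2 2.0.10, HTSeq 0.5.3, DESeq2 1.4.5 and GRCh37. The annotation and the strand setting are not given in the sources used here. The deposited values are a signal, reads per gene divided by the size factor of the library. All values came out as whole reads within 0.02, so reads were recovered (1 read was worth 0.959 to 1.08). The authors also deposited log2 fold changes, their standard errors and test statistics (score columns) and p-values from DESeq2, all of siAXL over siCt. None of these were used.

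The 16064 genes kept by filterByExpr of edgeR (47613 were left out) were tested with limma 3.58.1 on log2(normalized count + 1), using lmFit and trended eBayes over all 4 libraries, with Benjamini-Hochberg adjustment and a threshold of 0.05. A log2 difference on this scale understates changes of low genes. The recovered reads were tested with edgeR 4.0.16 (3122 genes called) and DESeq2 1.42.0 (2748). Other alternatives were pseudocounts of 0.5 and 8, no filter, other scalings, a replicate block, leaving out each library and, chosen after seeing the data, leaving out genes with CACATCA in the 3′ UTR. The limma, edgeR and DESeq2 fits were tried on simulated counts with known changes, drawn without a shift shared by same-numbered libraries. GENCODE 29 (GRCh38), joined by Ensembl identifier, gave lengths, overlaps and 3′ UTRs, and RefSeq gave promoters.

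The 48 genes, their roles, the related lists and the word CACATCA were chosen with earlier results of these data known. AXL, every autophagy gene, its near copies and overlapping genes with a mean above 4.25 reads are named, as are up to 4 called genes a direction with the smallest adjusted p in each related list. Libraries of a group differed beyond sampling noise (chi-square per gene 21.6 in siCt and 19.6 in siAXL) and were kept as 2 replicates.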

Additional observations from a re-analysis of the deposited data

How the results depend on the processing

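Of the 13 called genes, 5 (WIPI1, WIPI2, MAP1LC3B, GABARAP and SQSTM1) kept the call in every setting in which they were tested, and over all settings 143 of 176 calls were kept, 33 were lost and no sign turned. The 11 genes that rose came to 4 with every gene of at least 1 read tested, 4 at an adjusted p under 0.01 and 5 to 11 with 1 library left out. The 2 that fell came to 1, 1 and 1 to 5, and to 1 among genes without CACATCA, where SQSTM1 is left out by construction. The same settings gave 7, 6 and 7 to 13 for the 15 related genes that rose, and 1, 1 and 1 to 4 for the 3 that fell, which came to 5 after scaling by library size alone and 7 at an adjusted p under 0.1. The 3006 genes called in all came to 1097, 859 and 1301 to 3900, and to 4543 at an adjusted p under 0.1. The median over the autophagy genes, 0.096, was 0.067 after scaling by library size alone, 0.070 among genes without CACATCA and 0.059 to 0.12 with 1 library left out. A group left with 1 library was assumed to vary like the other group. In the fit of the 11426 genes without CACATCA, 8 autophagy genes were called higher, beside 11.8% of those genes, and 1 lower, beside 11.1%.

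With the replicate number as a block, 7310 genes were called, 21 autophagy genes as higher (23.3% of all genes) and 5 as lower (22.2%), and 30 and 15 related genes. Same-numbered libraries deviated together over genes (r = 0.271), but with 2 pairs and no label on what a number marks the numbers were not taken as a pairing.

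Signs turned only among genes not called. Scaling by library size alone gave ATG101 -0.010, UVRAG -0.026, ATG2A -0.0069, ATG12 -0.024 and OPTN -0.0070, and ATG4A was 0.0059 by edgeR and 0.0056 with TMM scaling. With 1 library left out the values ran from -0.0076 to 0.045 for ATG101, -0.051 to 0.057 for UVRAG, -0.010 to 0.25 for VMP1, -0.052 to 0.019 for ATG3, -0.043 to 0.036 for ATG4A, -0.043 to 0.054 for ATG12, -0.054 to 0.30 for MAP1LC3B2, -0.062 to 0.020 for CALCOCO2, -0.29 to 0.19 for WDFY3, -0.26 to 0.13 for EPG5 and -0.075 to 0.15 for STX17. The cause of these turns was not tested. Each of the 48 genes had at least 65 reads in every library, and the autophagy genes whose calls were lost with 1 library left out had log2 differences from -0.30 (ATG4D) to 0.60 (ATG10).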
